A study of Rana omeimontis with 6 samples.

Results

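Protease inhibitors of the blood plasma and their relatives were followed in the liver of Rana omeimontis tadpoles across ontogenetic fat accumulation. The members are transcript clusters, here called features, whose best protein match was named as a serpin, antitrypsin, antithrombin, antiproteinase, alpha-2-macroglobulin, ovostatin, inter-alpha-trypsin inhibitor, protein AMBP, protease inhibitor, trypsin inhibitor or cystatin, plasminogen being left out. The rule matched 92 of 121726 features, and 56 of these reached at least 1 FPKM, fragments scaled for transcript length and mapped total, in at least 3 of the 6 libraries. The other 36 matched features stayed below that level and were not tested. The rule uses names and level, not the difference between stages, but it was set with earlier results of these data known.

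The series compared liver RNA at different physiological states in tadpoles, with 3 poly-A selected libraries taken before ontogenetic fat accumulation and 3 taken after it. The labels give the same tissue and the same nature reserve as collection site for both stages, and no treatment, age or genotype. No label states that each library is a different animal. The p-values therefore reflect the spread among these libraries only, and that spread may be technical. Adjusted p-values below come from limma on log2(FPKM + 1) with Benjamini-Hochberg adjustment over 40548 features, two-sided, with a threshold of 0.05, and log2 differences are after minus before with a standard error.

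Vertebrate liver secretes many of the inhibitors that keep plasma proteases in check. Serpins are suicide substrates that trap a single serine protease in an irreversible complex, alpha-2-macroglobulins are large cages that close around proteases of many classes, and inter-alpha-trypsin inhibitor joins a small Kunitz inhibitor, cut from the AMBP precursor, to heavy chains that are passed on to hyaluronan. Kunitz and Kazal inhibitors block serine proteases with a short exposed loop, and cystatins block the cysteine proteases of lysosomes inside and outside cells.

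Each library summed to between 1358665 and 1442121 FPKM, and the absolute depth is unknown. Before replicate 3 held 49148 features at 1 FPKM or more, against 37208 to 42276 in the other libraries. The libraries carried hepatocyte markers, 7 of 8 listed genes being measured, and the summed hepatocyte list was higher after (11308 to 12609 FPKM) than before (6871 to 8342 FPKM). TTR and ALB rose and 0 of the 7 fell, against 4.64% and 4.00% of all features tested, too few genes for a comparison of shares. The others did not pass the threshold. Fibrinogen chains FGG and FGA had log2 differences of 0.67 and 0.46, and apolipoproteins APOA1 and APOB of 0.83 and 0.27. Serotransferrin (TF) went the other way, at -0.30, and the stages overlapped in all of these but FGG. All 7 listed exocrine pancreas markers were measured too, and their 44 features took 26%, 26.4% and 33.8% of the summed FPKM in after replicates 1, 2 and 3 and 30%, 34.1% and 21.9% in before replicates 1, 2 and 3. The stages overlapped in that share, with before replicate 3 lowest, and colipase (CLPS) fell, with a log2 difference of -0.74 (adjusted p = 0.0493, limma). Chymotrypsin (CTR) and carboxypeptidase A (CPA) had positive log2 differences of 0.71 and 0.82 (adjusted p = 0.164 and 0.199, limma). The median over the 7 pancreas genes was 0.02. Pancreas transcripts take up a large part of every library, and the part of either list in the inhibitor results was not tested. In bulk tissue, fewer cells of a type and less RNA per cell cannot be told apart. Summed stroma markers ran from 44.2 to 61.1 FPKM after and from 33.6 to 41.7 before. Among them COL1A2 was higher after (log2 difference 1.17, adjusted p = 0.0442, limma), and COL3A1 had a log2 difference of 0.98 (adjusted p = 0.0728, limma). The scarce COL1A1 stood at 0.113 FPKM after and 3.11 before (log2 difference -1.75). It reached 1 FPKM in the before libraries alone and so was bound to be lower after. Its direction therefore cannot be set against the other collagens. Leukocyte markers ran from 3091 to 6198 after and from 4195 to 8678 before. Most of this was lysozyme (LYZ), at 2884.81 to 6037.52 FPKM after and 3719.39 to 8419.11 before. CD74 averaged 23.1 FPKM after and 41.7 before, MPO 3.91 and 6.1, and PTPRC 1.05 and 1.04. Gut and skin markers were low, at 10.1 to 17.9 FPKM after and 21.1 to 59.2 before, with villin-1 lower after. Erythroid markers summed to 22800 to 26756 FPKM after and 16327 to 21445 before, without overlap, while neither of the 2 measured genes passed the threshold. The part of these lists in the inhibitor results was not tested either.

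Few of the inhibitor transcripts passed the threshold, at about the rate of all features, and those that passed in the main fit were serpins. Under some other settings Cystatin-C or Kazal-type 4 also passed, as given below. The serpins Alpha-1-antiproteinase, hylaserpin S1 and protein Z-dependent protease inhibitor rose, so that 3 of 56 members were higher after at the threshold, and 0 fell. Over all features tested 4.64% were higher and 4.00% lower, and over the 14725 features with a protein description 6.31% were higher and 3.38% lower. The count of 3 is therefore near the background share. At an unadjusted p under 0.05 there were 11 of 56 members, against 26.6% of all features. The 3 libraries of one stage lay wholly above those of the other for 7 members in the upward and 6 in the downward direction, against 15.7% and 16.8% of all features. Leaving out the ovostatin-like feature 8914.6291, which reached the level rule through the before libraries alone and so was bound to be lower after, these counts were 10 at an unadjusted p under 0.05 and 5 downward. The shares over all features still include features of that kind. The median log2 difference was -0.04 over the members and -0.08 over all features, with 26 members positive and 30 negative, against 54.2% of all features negative. In 30 members the difference was within 0.5 on the log2 scale.

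**Figure D1:**
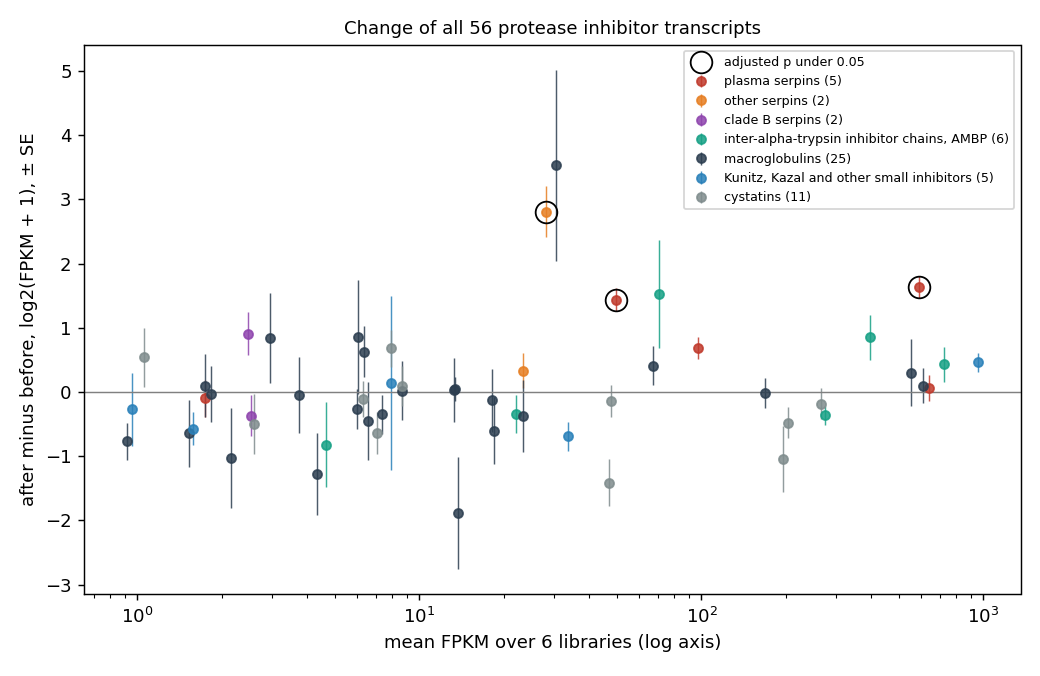
Log2 difference (after minus before, with SE) of each of the 56 inhibitor features against its mean FPKM over the 6 libraries on a log axis, coloured by class, with circles round the 3 features past the threshold. The points lie on both sides of 0, but those ranked 1 to 7 by mean are all above it (0.06 to 1.63). The circled features are 2 plasma serpins and 1 other serpin.

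The inhibitors spanned a wide range of level. By mean over the 6 libraries, 12 members stood at 100 FPKM or more, 17 between 10 and 100, and 27 under 10. The 10 most abundant took 76.2% to 86% of the members' summed FPKM in each library. That sum was 7018 ± 972 FPKM after and 5607 ± 802 before (SD, n = 3 each), which is 0.47% to 0.589% of all FPKM after and 0.325% to 0.433% before. With the pancreas features taken out of the total, the shares were 0.647% to 0.796% after and 0.492% to 0.614% before. Before replicate 2 was the lowest library of its stage for 36 of the 56 members, and it is also the library with the largest pancreas share. With the pancreas features taken out, its share of 0.492% was still the lowest before value. After replicate 1, with the smallest pancreas share of its stage, was the lowest after library for 26 members and the highest for 22. After replicate 3, with the largest share of its stage, was the lowest for 18 and the highest for 20. Before replicate 3, with the smallest pancreas share of all 6 libraries, was the highest before library for 29 members. A link between these values and the pancreas share was not tested. Of the 56 members, 40 reached 1 FPKM in all 6 libraries and 7 were listed at 0 in at least 1. At the edge of the level rule, the third-highest value was 1.0 FPKM in an alpha-2-macroglobulin-like feature and 1.06 in an ovostatin-like feature that were kept, and 0.92 in a Kazal-type 4 precursor and 0.88 in a kunitz-type protease inhibitor 1 that were not. Ovostatin-like feature 8914.6291 measured 0.13, 0.46 and 0.65 FPKM after and 1.1, 1.13 and 2.03 before.

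Of the 3 members that rose, 2 were plasma serpins. Of 5 measured features 2 rose and 0 fell, against 4.64% and 4.00% of all features tested, too few members for a comparison of shares. The median log2 difference of the 5 was 0.68. Alpha-1-antiproteinase (feature 8914.32887, best match in the bullfrog Rana catesbeiana), the inhibitor known in mammals for protecting tissue from neutrophil elastase, measured 1014.69, 716.59 and 960.59 FPKM in after replicates 1, 2 and 3 and 267.62, 279.59 and 309.87 in before replicates 1, 2 and 3. Every after library was well above every before library. The means were 897 ± 159 and 286 ± 21.8 FPKM (SD, n = 3), a log2 difference of 1.63 ± 0.174 with adjusted p = 0.00664 (limma). It passed the threshold with any 1 library left out, with adjusted p between 0.0209 and 0.0373 (limma). Its share of the members' summed FPKM was 11.1% to 14.9% after and 4.39% to 5.97% before. Features 83.0 and 317.0, described as clade A member 1 (alpha-1 antiproteinase, antitrypsin), were below the level rule. They were listed at 0 in every after library and reached at most 2.28 and 0.65 FPKM before.

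Antithrombin, the serpin that inactivates thrombin and factor Xa and is listed as clade C member 1 (8914.33208), is a second very abundant plasma serpin. It measured 679.61, 657.91 and 615.36 FPKM in after replicates 1 to 3 and 790.62, 472.87 and 644.46 in before replicates 1 to 3. The before libraries spread on both sides of the after libraries, and the log2 difference was 0.06 ± 0.204 (adjusted p = 0.874, limma). The ratio of Alpha-1-antiproteinase to antithrombin was 1.49, 1.09 and 1.56 in the after libraries and 0.338, 0.591 and 0.481 in the before libraries. Alpha-1-antiproteinase was thus the less abundant of the pair before and the more abundant after, in each library; the ratio was chosen after its values were seen and was given no test.

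Protein Z-dependent protease inhibitor, a serpin that inactivates coagulation factor Xa with protein Z as cofactor, was represented by 2 features. The lower one (8914.29641) measured 76.3, 67.53 and 74.64 FPKM in after replicates 1 to 3 and 22.26, 26.66 and 30.48 in before replicates 1 to 3. It rose by a log2 difference of 1.44 ± 0.182 (adjusted p = 0.0102, limma), and without after replicate 3 the adjusted p was 0.0531. The more abundant one (8914.32532) measured 136.32, 106.29 and 118.13 FPKM after and 84.16, 67.9 and 72.25 before. Its groups did not overlap either, but the log2 difference of 0.68 ± 0.172 missed the threshold (adjusted p = 0.0592, limma), which it passed with a filter at 5 FPKM (adjusted p = 0.0374). Summed over both features, the transcript stood at 193 ± 19.4 FPKM after and 101 ± 6.07 before (adjusted p = 0.0191, limma on values summed by description). The remaining plasma serpin, clade F member 1 (8914.5455), known as pigment epithelium-derived factor and not an inhibitor of proteases, was near the lower limit at 1.64 ± 0.588 FPKM after and 1.82 ± 0.612 before (adjusted p = 0.861, limma).

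The largest rise past the threshold was that of hylaserpin S1 (8914.31102), a serpin named from a tree frog of the genus Hyla. It measured 69.8, 28.75 and 51.4 FPKM in after replicates 1, 2 and 3 and 3.75, 8.35 and 6.19 in before replicates 1, 2 and 3. The lowest after library was above the highest before library, while the after libraries differed widely among themselves. The means were 50 ± 20.6 and 6.1 ± 2.3 FPKM, and the log2 difference was 2.81 ± 0.394 (adjusted p = 0.0132, limma). Without after replicate 3 the adjusted p was 0.0592. Neuroserpin (clade I member 1, 8914.16226), which in mammals inhibits tissue plasminogen activator in the nervous system, measured 19.54, 26.79 and 31.94 FPKM after and 24.69, 14.86 and 22.19 before. These overlapped, with adjusted p = 0.501 (limma). The 4 other members of this class, serpin H1 features among them, were below the level rule.

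Both clade B serpins, intracellular inhibitors related to ovalbumin, were matched to member 6 and were scarce. Feature 8914.40648 measured 1.66, 2.06 and 2.38 FPKM after and 3.68, 1.62 and 3.83 before (adjusted p = 0.516, limma). Its neighbour in the assembly numbering, 8914.40649, measured 3.0, 3.92 and 3.41 FPKM after and 1.61, 2.32 and 0.52 before (adjusted p = 0.15, limma). Features of 1 description and consecutive numbers can share reads, and the sum of the pair was 5.48 ± 0.714 FPKM after and 4.53 ± 0.692 before.

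**Figure D2:**
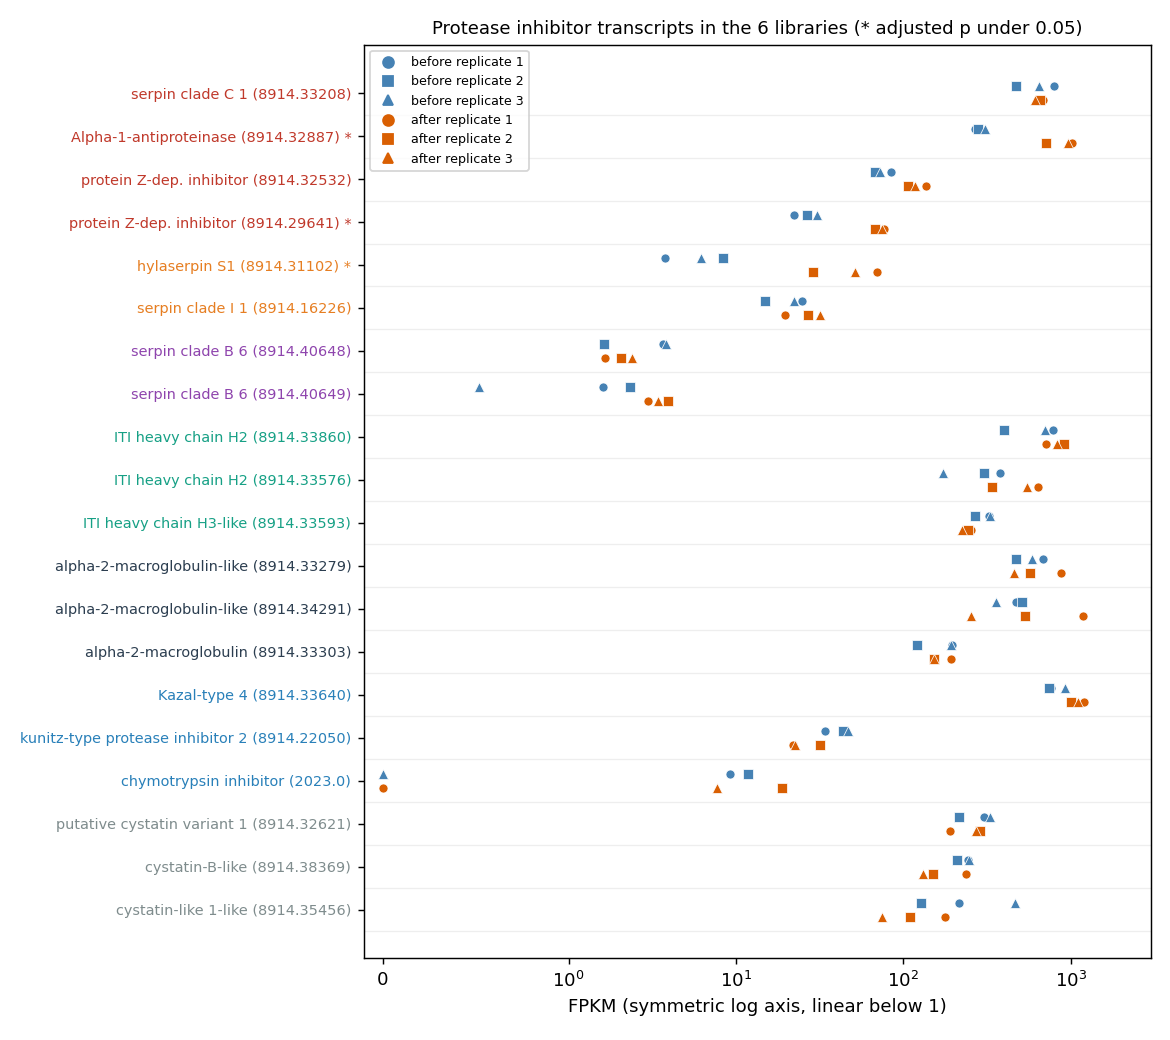
FPKM in each library, on a symmetric log axis that is linear below 1, for the named features: those past the threshold (asterisk) and the most abundant of each class. Circles, squares and triangles are replicates 1, 2 and 3, blue before and orange after. The stages separate fully for Alpha-1-antiproteinase, both protein Z-dependent inhibitor features, hylaserpin S1, one clade B feature, H3-like heavy chain 8914.33593, Kazal-type 4 and kunitz-type 2, and they overlap in the others.

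Inter-alpha-trypsin inhibitor chains were as abundant as the plasma serpins, and none of the 6 features of this class passed the threshold. Over all features tested 4.64% were higher and 4.00% lower, and 6 features are too few for a comparison of shares. Heavy chain H2 was represented by 2 features. The first (8914.33860) measured 712.17, 916.48 and 824.05 FPKM in after replicates 1 to 3 and 780.45, 400.58 and 699.28 in before replicates 1 to 3 (adjusted p = 0.364, limma). The second (8914.33576) measured 635.33, 340.73 and 550.3 after and 380.97, 303.64 and 173.17 before (adjusted p = 0.182, limma). In both the stages overlapped through a single library. Summed, H2 stood at 1326 ± 61.4 FPKM after and 913 ± 231 before, with adjusted p = 0.123 (limma on values summed by description).

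Heavy chain H3-like, a relative that carries hyaluronan in the same kind of complex, had a negative log2 difference. Its main feature (8914.33593) measured 252.37, 242.22 and 223.63 FPKM after and 324.44, 268.07 and 330.75 before. The stages did not overlap, and the log2 difference of -0.36 did not pass the threshold (adjusted p = 0.185, limma). The ratio of summed H2 to summed H3-like FPKM was 4.99, 4.71 and 5.55 in the after libraries and 3.19, 2.46 and 2.38 in the before libraries. All after ratios were above all before ratios. This ratio, too, was chosen after its values were seen and was not tested.

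Protein AMBP (8914.35593), the precursor of the Kunitz inhibitor bikunin and of alpha-1-microglobulin, is named here after its values were seen. It measured 84.51, 117.82 and 78.46 FPKM after and 42.78, 95.1 and 6.95 before. The before libraries ranged from the lowest to the second-highest value of all, and the log2 difference of 1.53 ± 0.841 had an adjusted p of 0.306 (limma). Without before replicate 3 the difference was 0.52 and without before replicate 2 it was 2.32. The light chain precursor was thus far scarcer than the H2 chain in FPKM, a level per transcript length, in all 6 libraries.

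Macroglobulins were the most numerous class, with 25 measured features out of 36 matched. By limma at the threshold 0 rose and 0 fell, against 4.64% and 4.00% of all features tested. An unadjusted p under 0.05 was found in 1 of the 25, ovostatin-like 8914.6291, against 26.6% of all features. That feature was bound to be lower after, and the share over all features includes features of that kind too. The median log2 difference was -0.03. The most abundant alpha-2-macroglobulin-like feature (8914.33279) measured 880.99, 571.7 and 460.81 FPKM after and 681.68, 469.48 and 591.15 before (adjusted p = 0.852, limma). The next (8914.34291) measured 1192.9, 536.67 and 253.39 after and 471.17, 514.0 and 358.12 before (adjusted p = 0.761, limma). In both, after replicate 1 was highest and after replicate 3 lowest of all 6 libraries, so the after libraries alone spanned the whole range. Without after replicate 1 the differences were -0.16 and -0.26 on the log2 scale. The alpha-2-macroglobulin precursor matched to Xenopus laevis (8914.33303) was steadier, with 191.84, 153.65 and 152.7 FPKM after and 196.1, 121.06 and 194.13 before (adjusted p = 0.982, limma).

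Across the 25 macroglobulin features, before replicate 2 was the lowest library of its stage in 19, and before replicate 3 the highest in 14. After replicate 1 was the highest of its stage in 11 and the lowest in 11, and after replicate 3 the highest in 12 and the lowest in 9. The class sum was 1724 ± 707 FPKM after and 1455 ± 182 before. The largest log2 difference of any member belonged to alpha-2-macroglobulin-like 1 isoform X1 (8914.50902), named here after its values were seen. It measured 29.44, 52.68 and 49.39 FPKM after, had a listed value of 0 in before replicates 1 and 2, and reached 52.02 in before replicate 3. With all libraries the adjusted p was 0.191, and without before replicate 3 it was 0.00958 (limma). That second fit removed the only before library above 0, so it cannot serve as support for a difference between the stages. The neighbouring feature matched to isoform X2 (8914.50901) was present in all libraries, and the pair summed to 41.08, 71.21 and 75.06 FPKM after and 27.11, 9.80 and 98.38 before. Before replicate 3 held the highest sum of the pair and before replicate 2 the lowest. The 3 measured ovostatin-like features, named from an egg-white macroglobulin of birds, summed to 8.7 ± 0.524 FPKM after and 10.1 ± 7.7 before.

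Among the small serine protease inhibitors, 0 of 5 measured features passed the threshold (limma), against 4.64% higher and 4.00% lower over all features tested. An unadjusted p under 0.05 was found in 2, as in 26.6% of all features. The Kazal-type 4 inhibitor (8914.33640, matched to the marsupial Sarcophilus harrisii) had the highest mean of all 56 members. It measured 1203.97, 1006.99 and 1104.12 FPKM in after replicates 1 to 3 and 759.8, 739.17 and 920.84 in before replicates 1 to 3. All after libraries were above all before libraries, with means of 1105 ± 98.5 and 807 ± 99.5 FPKM. The log2 difference of 0.46 ± 0.146 missed the threshold (adjusted p = 0.103, limma). Kazal inhibitors are also made by the exocrine pancreas, where they restrain trypsin. After each library was rescaled without the pancreas marker features, a step chosen after seeing the data, the adjusted p was 0.0409, and after quantile normalization it was 0.0474 (limma). The rescaling changes only the library totals, so the cell source of this transcript was not tested.

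Kunitz-type protease inhibitor 2 (8914.22050), a membrane-bound inhibitor of hepatocyte growth factor activator and matriptase, measured 22.05, 31.86 and 22.61 FPKM after and 34.05, 43.85 and 46.57 before. Every before library was above every after library, and the log2 difference was -0.69 (adjusted p = 0.108, limma). The feature matched to a chymotrypsin inhibitor of the bee Apis florea (2023.0) was listed at 0 in after replicate 1 and before replicate 3, and measured 18.79 and 7.73 FPKM in the other after and 9.19 and 11.77 in the other before libraries. It varied as much within as between the stages (adjusted p = 0.962, limma).

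None of the 11 measured cystatin features passed the threshold, against 4.64% higher and 4.00% lower over all features tested. Of the 11, 1 had an unadjusted p under 0.05 (limma), against 26.6% of all features. The cystatin log2 differences were negative in 8 and positive in 3, with a median of -0.18. Over all features 54.2% were negative and the median was -0.08. The feature named putative cystatin variant 1 (8914.32621) measured 190.99, 287.57 and 270.39 FPKM after and 302.31, 214.35 and 331.52 before (adjusted p = 0.686, limma). Cystatin-B-like (8914.38369), named for an inhibitor of cathepsins inside cells, measured 236.83, 150.18 and 131.58 after and 243.71, 210.26 and 246.68 before (adjusted p = 0.267, limma). Cystatin-like 1-like (8914.35456) measured 178.34, 109.06 and 74.5 after and 215.82, 128.39 and 461.99 before, so its before mean rested largely on before replicate 3 (adjusted p = 0.255, limma).

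Cystatin-C (8914.8137, best match in Rana catesbeiana), the secreted cystatin that inhibits cathepsins outside cells, is named after its values were seen because it lay nearest to the threshold on the lower side. It measured 25.41, 24.39 and 21.41 FPKM after and 77.5, 35.88 and 96.63 before. The after libraries were tightly grouped below all before libraries. The means were 23.7 ± 2.08 and 70 ± 31.1 FPKM, and the log2 difference of -1.41 ± 0.364 had an adjusted p of 0.0616 (limma). It passed the threshold in 1 of the 6 fits with 1 library left out, that without before replicate 2 (adjusted p = 0.0241), and reached an adjusted p of 0.17 without after replicate 3 (limma). Of the other settings it passed under 4, with adjusted p = 0.0256 after quantile normalization (limma). A second feature, described as Cystatin-C, partial (48218.0), stood at 8.93 ± 2.23 FPKM after and 8.48 ± 2.8 before (adjusted p = 0.881, limma). The cystatin class sum was 647 ± 50.2 FPKM after and 938 ± 267 before, with the before libraries ranging more widely.

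**Figure D3:**
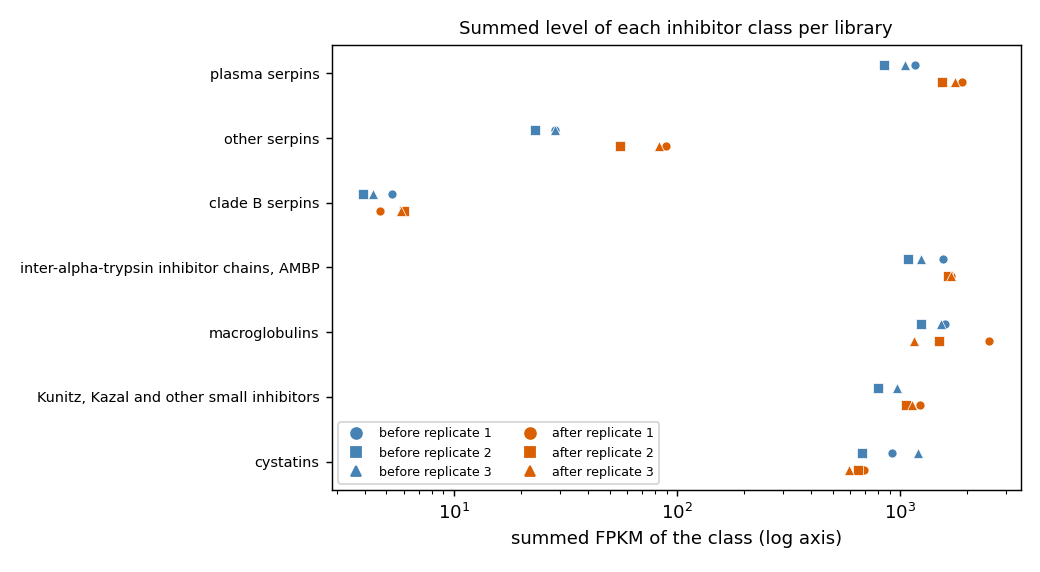
Summed FPKM of the measured features of each inhibitor class in each library, on a log axis, with symbols for replicates 1 to 3, blue before and orange after. Plasma serpins sum to 1743 ± 181 FPKM after and 1025 ± 162 before and other serpins to 76 ± 18 and 26.7 ± 3, without overlap of the stages. The sums of inter-alpha-trypsin inhibitor chains with AMBP and of small inhibitors are also fully higher after, whereas those of clade B serpins, macroglobulins and cystatins overlap.

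The summed levels set these classes side by side, per transcript length. Macroglobulins had the highest before mean, ahead of inter-alpha-trypsin inhibitor chains with AMBP and plasma serpins. Plasma serpins had the highest after mean, and they and the macroglobulins were closer to each other after than their spread (1743 ± 181 and 1724 ± 707 FPKM). Inter-alpha-trypsin inhibitor chains with AMBP summed to 1682 ± 34.4 FPKM after and 1300 ± 247 before, and small inhibitors to 1141 ± 83.2 and 858 ± 97.7, nearly all of it Kazal-type 4. Their sums ran from 1642 to 1702 after and from 1085 to 1569 before for the chains, and from 1061 to 1227 and from 797 to 971 for the small inhibitors, so that both separated by stage, as the plasma and other serpins did. Of all single features tested, 15.7% lay fully higher after. The class sums are too few for a comparison with that share, and they were not tested. Cystatins were the class whose sum was lower after. Since a sum follows its most abundant features, the macroglobulin sum repeats the spread of the pair led by after replicate 1. Likewise, Alpha-1-antiproteinase averaged 897 FPKM after and 286 before, within plasma serpin means of 1743 and 1025. Antithrombin and clade F member 1 overlapped between the stages, and the protein Z-dependent inhibitor features did not. Hylaserpin S1 averaged 50 and 6.1 FPKM within other serpin means of 76 and 26.7, and neuroserpin overlapped. The separated serpin sums are thus not a rise of every member.

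The proteases on which these inhibitors act, including coagulation, complement and lysosomal enzymes, moved in both directions. Of 28 listed genes 19 were measured, 3 rose, 1 fell, and the median log2 difference was 0.03. Over all features tested 4.64% were higher and 4.00% lower, and 19 genes are few for a comparison of shares. The gene that fell was CTSL (described as cathepsin L2), a lysosomal cysteine protease that cystatins inhibit. It measured 103.61, 116.84 and 135.47 FPKM in after replicates 1 to 3 and 398.55, 343.42 and 438.51 in before replicates 1 to 3. The stages were far apart, with a log2 difference of -1.72 ± 0.171 and adjusted p = 0.00553 (limma), and the call held with any 1 library left out. The other cathepsins measured, CTSB, CTSC and CTSS, did not pass, with adjusted p = 0.168, 0.0965 and 0.96 (limma).

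The 3 proteases that rose were MASP1, MASP2 and HGFAC. MASP1 and MASP2 are the serine proteases of the lectin pathway of complement, and HGFAC is the activator of hepatocyte growth factor. MASP1 stood at 19.5 ± 4 FPKM after and 5.01 ± 2.96 before, a log2 difference of 1.87 (adjusted p = 0.0345, limma). MASP2 stood at 107 ± 9.26 and 61 ± 11.3 FPKM (log2 difference 0.82, adjusted p = 0.0455, limma), and HGFAC at 62.3 ± 6.92 and 29.7 ± 6.31 (log2 difference 1.06, adjusted p = 0.0299, limma). In each the stages did not overlap. With 1 library left out MASP2 and HGFAC missed the threshold in all 6 fits, with adjusted p of up to 0.145 and 0.104, and MASP1 in all but 1, with up to 0.0973 (limma). No coagulation protease passed the threshold, though some had positive differences. F9 stood at 30.8 ± 9.72 FPKM after and 14.8 ± 5.66 before, without overlap (log2 difference 1.04, adjusted p = 0.113, limma). F12 and PLG had log2 differences of 0.60 and 0.44, KLKB1 and HABP2 of 0.03 and 0.07, and F7, F2 and PROC of -0.22, -0.10 and -0.05. Prothrombin (F2), the target precursor of antithrombin, stood at 649 ± 87.7 FPKM after and 702 ± 127 before (adjusted p = 0.77, limma).

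Further inhibitors and related plasma proteins that the naming rule does not catch were gathered in a list written after the data were seen. Of 25 listed genes 9 were measured, 1 rose, 0 fell and the median log2 difference was -0.04. Over all features tested 4.64% were higher and 4.00% lower, and 9 genes are too few for a comparison of shares. FETUB (fetuin-B), a liver-secreted protein with cystatin-type domains that inhibits astacin-type metalloproteases in mammals, was more abundant than any member. It measured 3908.45, 3247.35 and 4182.2 FPKM after and 1605.04, 1493.9 and 1198.28 before. All after libraries were above all before libraries, with a log2 difference of 1.40 ± 0.166 (adjusted p = 0.00875, limma). FETUB passed the threshold with any 1 library left out, with adjusted p of up to 0.0412 (limma). With the replicate number as a block it missed the threshold (adjusted p = 0.0605, limma). Among serpins known by other names, SERPIND1 (heparin cofactor 2) stood at 204 ± 21.9 FPKM after and 122 ± 37.3 before (adjusted p = 0.104, limma). SERPING1 (plasma protease C1 inhibitor), which inactivates the complement proteases C1r and C1s, stood at 144 ± 9.39 and 116 ± 20 (adjusted p = 0.31, limma). The lowest log2 differences belonged to a WAP-domain feature (-0.96) and to SERPINB1, the leukocyte elastase inhibitor (-0.86, adjusted p = 0.0595, limma), neither past the threshold. KNG1 (kininogen-1), which holds cystatin domains, measured 621 ± 224 FPKM after and 622 ± 150 before.

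**Figure D4:**
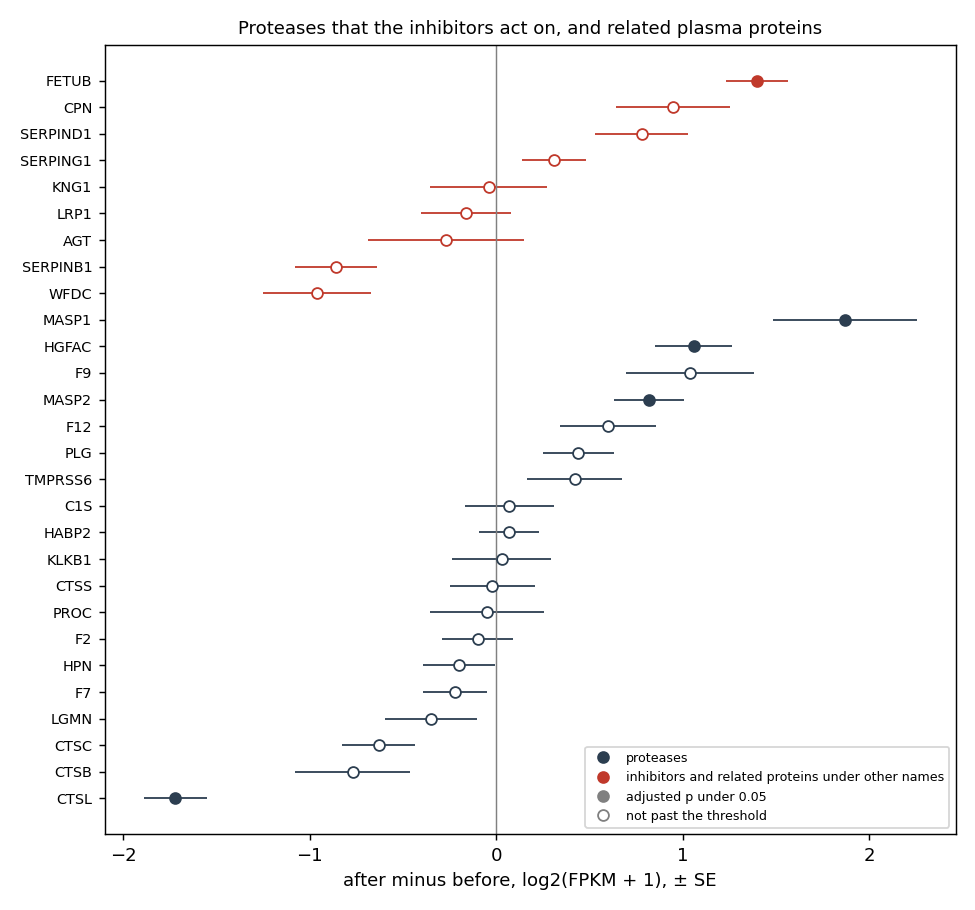
Log2 difference (after minus before, with SE) of the 19 measured target proteases and of the 9 measured inhibitors and related plasma proteins under other names, filled where the adjusted p was under 0.05. MASP1, HGFAC, MASP2 and FETUB are filled to the right of 0 and CTSL to the left.

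The members' descriptions came mostly from frogs. The best match was in Xenopus tropicalis for 31 of the 56 features, in Xenopus laevis for 8 and in Rana catesbeiana for 2, and the 56 features carried 35 distinct descriptions. Because 25 features were macroglobulins and several shared a description, members are not independent, and single levels are uncertain where a transcript was split or relatives share reads.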

How the data were processed

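Per the labels' protocols, poly-A RNA of 6 liver samples was read from both fragment ends on a HiSeq. The authors deposited 1 matrix of FPKM values per feature and library with protein descriptions, per the file headers; assembly, aligner and FPKM program: not given in the sources used here. Depth is unknown, so values carry no counting interval and the lowest are least precise. No libraries held identical values.

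The members and lists were chosen with earlier results of these data known; the list of inhibitors under other names was written after the data were seen. The 40548 features reaching 1 FPKM in 3 or more libraries were fitted with limma 3.58.1 in R 4.3.3 (lmFit, eBayes with trend, pseudocount 1, no covariates); tables and figures used Python 3.11.15. The log2(FPKM + 1) scale understates the change of low features. The fit was tested on simulated data.

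Named are members with an adjusted p under 0.05, the 3 most abundant of each class and target proteases past the threshold; others are said to be named after their values were seen. For a listed gene with several features, the one with the highest mean stood for it. Alternatives were a pseudocount of 0.1, no filter, a filter at 5 FPKM, median-of-ratios scaling, quantile normalization, summing by description, the replicate number as a block, leaving out each library and, added after seeing the data, rescaling without pancreas markers.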

Additional observations from a re-analysis of the deposited data

How the results depend on the processing

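The 25 named features were refitted under 14 alternatives, except the 2 clade B features, which the filter at 5 FPKM removed, and 296 of 348 values kept their direction and side of the threshold. Alpha-1-antiproteinase and CTSL passed in every alternative. Over all features, 3502 passed as reported, 1067 without the filter, 339 with the replicate block and 691 to 1867 with 1 library left out, where fewer samples were fitted. Members higher after numbered 3, with 1 under the replicate block, 4 with the filter at 5 FPKM and with quantile normalization, 5 after rescaling without pancreas markers and 1 to 4 with 1 library left out, the 1 being without after replicate 3. Members lower after numbered 0, with 1, Cystatin-C, under the filter at 5 FPKM, median-of-ratios scaling, quantile normalization and pancreas rescaling, and 0 to 1 with 1 library left out. Of the target proteases, the 3 higher became 0 without the filter, 1 with quantile normalization, 0 with the replicate block and 0 to 1 with 1 library left out; the 1 lower became 2 with the filter at 5 FPKM. The cause of these moves was not tested. Same-numbered libraries had correlations of -0.00489, -0.0387 and -0.0876 in their deviations from the stage means. With 3 libraries per stage, such values cannot decide whether the numbers pair the libraries. Directions of uncalled features turned for the alpha-2-macroglobulin precursor 8914.33303 (0.03 with median-of-ratios scaling, 0.10 summed by description, 0.04 with pancreas rescaling, -0.24 to 0.11 with 1 library left out) and the clade B feature 8914.40648 (0.23 summed by description). With 1 library left out they also turned for putative cystatin variant 1 (-0.36 to 0.00), alpha-2-macroglobulin-like 8914.33279 (-0.16 to 0.31) and 8914.34291 (-0.26 to 0.85), the chymotrypsin inhibitor (-1.03 to 1.38) and clade C member 1 (-0.13 to 0.24). The median log2 difference lay between -0.14 and 0.03 over all features and between -0.23 (without after replicate 3) and 0.09 (without before replicate 1) over the members. Depth is unknown, which limits features under 10 FPKM most.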
